A study of Mus musculus with 24 samples.

Results

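Aminoacyl-tRNA synthetases join each amino acid to its transfer RNA, the step that supplies ribosomes with charged tRNA. The 35 synthetase genes described here were taken by name from the 56884 genes of the count table. Of these, 19 encode cytosolic enzymes or subunits (symbols ending in 1, with Farsa and Farsb) and 16 encode mitochondrial enzymes (symbols ending in 2). Gars1 and Kars1 were counted with the cytosolic enzymes, although each gene gives rise to both a cytosolic and a mitochondrial form. All 35 passed the filter on low counts, and the lowest count of any of them in any library was 60 reads.

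All synthetases are made from nuclear genes, and the mitochondrial enzymes are imported to charge the tRNAs of the mitochondrial ribosome. Several cytosolic enzymes sit together in the multisynthetase complex, held by scaffold proteins. The integrated stress response (ISR) begins when stress kinases phosphorylate the translation initiation factor eIF2α, which lowers general translation while the transcription factor ATF4 is made. ATF4 is known to act on genes of amino acid synthesis, amino acid transport and tRNA charging, the cytosolic synthetases among them.

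The libraries come from macrophages grown out of the bone marrow of 4 wild-type C57BL/6J mice, female and 9 weeks old, which carry the numbers 1, 2, 4 and 5. Each mouse gave 1 library in each of 6 groups, 24 libraries in all. Naive cells received neither IL-4 nor IL-13, and the IL-4/IL-13 group received IL-4 and IL-13, both at 20 ng/ml, for 24 hours. The remaining groups had the same cytokines after 1 hour of pretreatment with an inhibitor, which then stayed in the medium. Tunicamycin, an inhibitor of N-glycosylation in the endoplasmic reticulum, was used at 5 µg/ml, and Sal003, a salubrinal derivative that blocks dephosphorylation of eIF2α, at 10 µM. The groups called Oligo and Oli_ISR after their library names both received oligomycin, an inhibitor of the mitochondrial ATP synthase, at 1 µM, and 1 of them also received ISRIB, which counteracts the ISR, at 1 µM. The labels conflict on which one that is: the library names place ISRIB in Oli_ISR, whereas the titles and treatment fields place it in Oligo. The conflict was not settled from the values, and Oligo and Oli_ISR serve as names only. The cells had all been grown in M-CSF, whose concentration is given in different units by the labels and by the methods of the study.

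The reads assigned to genes numbered 16238727 to 26725278 in a library, with a median of 18999998. Replicates differed by more than sampling noise (chi-square per gene between 2.194 and 35.91), and each was kept as a replicate of its own. Naive mouse 2 stood apart, at 27.292 to 35.91 per gene against the other naive libraries, which differed from each other by 6.054 to 7.977. Wide differences were also seen in Sal003, from 3.183 to 22.029, and in Oli_ISR, from 3.203 to 18.866, both largest between mice 4 and 5. All 8 macrophage markers were detected, with a summed level, in counts-per-million (CPM), of 31093 to 36950 in naive cells, 11426 to 13836 with IL-4/IL-13, 16442 to 18062 with tunicamycin, 13831 to 15562 with Sal003, 8782 to 9611 in Oligo and 13445 to 15349 in Oli_ISR. The 4 T cell markers summed to at most 0.284 CPM and the 4 erythroid markers to at most 0.162 CPM in any library. The 6 neutrophil markers, 3 of them under 1 CPM on average, summed to 31.4 to 61.2 CPM in naive cells, 18.1 to 33.4 with IL-4/IL-13, 0.0513 to 0.286 with tunicamycin, 4.20 to 6.69 with Sal003, 1.98 to 3.72 in Oligo and 14.5 to 18.4 in Oli_ISR. The 4 fibroblast markers summed to 17.8 to 135 CPM in naive cells, 14.7 to 84.2 with IL-4/IL-13, 3.36 to 24.0 with tunicamycin, 7.31 to 46.5 with Sal003, 5.35 to 53.3 in Oligo and 7.70 to 51.6 in Oli_ISR. The 4 B cell markers reached at most 3.24 CPM in sum and the 4 dendritic cell markers at most 7.41 CPM. The part of these other cells in the synthetase levels was not tested. In bulk samples, fewer cells of a type and less RNA per cell cannot be told apart.

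The promoters of the synthetases are shown first, because ATF4 is known to bind elements that hold the letters TGATGNAA, where N is any base. These letters were searched on both strands from 250 bases before to 50 bases after the start of the canonical transcript. They were present in 375 of 13632 promoters of tested genes (2.75%), in 5 of 19 cytosolic synthetases (Aars1, Cars1, Gars1, Iars1 and Tars1) and in 0 of 16 mitochondrial ones. All 6 matches lie on the strand opposite to the gene, so that the capitals below show the reverse complement. The window of Aars1 (chr8:111760258-111760557, plus strand) is given whole, since it is the only one of the 35 with a pair of matches, starting 146 and 25 bases before the first transcribed base. Sequences are from the mouse assembly GRCm39, 5′ to 3′ along the gene.

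Aars1: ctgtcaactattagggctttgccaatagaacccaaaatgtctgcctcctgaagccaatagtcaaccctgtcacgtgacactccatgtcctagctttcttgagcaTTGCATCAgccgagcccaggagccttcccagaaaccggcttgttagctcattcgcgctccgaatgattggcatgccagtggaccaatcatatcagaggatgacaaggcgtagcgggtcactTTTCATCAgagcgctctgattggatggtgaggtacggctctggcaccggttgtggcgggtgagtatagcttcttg

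The other 4 windows with a match are given as stretches of 60 bases with the match in capitals. That of Tars1 (chr15:11399726-11399785, minus strand) starts its match 8 bases before the first transcribed base. In Gars1 (chr6:55014930-55014989, plus strand), Cars1 (chr7:143153778-143153837, minus strand) and Iars1 (chr13:49835566-49835625, plus strand) the match starts 12, 27 and 37 bases after it.
Tars1: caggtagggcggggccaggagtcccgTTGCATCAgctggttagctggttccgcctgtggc
Gars1: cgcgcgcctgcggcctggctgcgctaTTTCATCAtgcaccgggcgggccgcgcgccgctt
Cars1: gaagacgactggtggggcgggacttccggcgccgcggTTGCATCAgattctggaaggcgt
Iars1: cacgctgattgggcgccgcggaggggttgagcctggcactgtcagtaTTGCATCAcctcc

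A match is a description of the sequence and not evidence of binding. With a match, the log2 change under tunicamycin was 3.01 for Aars1, 1.98 for Iars1, 1.93 for Gars1, 1.66 for Cars1 and 1.36 for Tars1. Cytosolic genes whose windows hold no match lay on both sides of Tars1. Above it were Sars1 and Eprs1 at 2.40, Wars1 at 2.38, Yars1 at 2.08, Nars1 at 2.05, Lars1 at 1.71 and Vars1 at 1.54. Below it were Mars1 at 1.30, Farsb at 0.95, Hars1 at 0.61, Kars1 and Farsa at 0.60, Rars1 at 0.52 and Qars1 at 0.13. Whether a match goes with the change was not tested.

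The first comparison set the compartments side by side in cells with IL-4/IL-13 alone, on a per-length scale (transcripts-per-million, TPM, computed from the counts and exon lengths). The median level was 40.9 TPM over the 19 cytosolic genes and 7.19 TPM over the 16 mitochondrial genes. Nars1, the asparaginyl enzyme, was the highest of all at 161 TPM, and Cars1, the cysteinyl enzyme, the lowest of the cytosolic set at 9.77 TPM. Among the mitochondrial enzymes, Hars2 (histidine) was highest at 28.5 TPM and Nars2 (asparagine) lowest at 1.93 TPM. Asparagine therefore had the widest gap of the 17 pairs of enzymes for the same amino acid, with a log2 ratio of cytosolic to mitochondrial TPM of 6.38 ± 0.05 (SD, n = 4), and cysteine the narrowest, at 0.25 ± 0.16. With the length of the canonical transcript in place of all exons, the medians were 95.2 and 14.2 TPM, Nars1 and Cars1 kept their places, the highest mitochondrial gene was Tars2 at 52.5 TPM and the lowest was Mars2 at 3.54 TPM. The narrowest pair was then threonine, at a log2 ratio of 0.12.

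The cytokines alone raised 24 of the 35 synthetases, by at most 1.69-fold. Of the 19 cytosolic genes, 15 were higher in IL-4/IL-13 than in naive cells and 1 was lower (Nars1), and of the 16 mitochondrial genes 9 were higher and 2 lower (Vars2 and Hars2). Called means an adjusted p-value under 0.05 in edgeR's quasi-likelihood test, adjusted by the Benjamini-Hochberg method over the 13679 genes tested, and this holds for all adjusted p-values given here. Of all genes tested, 30.1% were called higher and 30.4% lower in this comparison. The median log2 change was 0.31 over the cytosolic and 0.22 over the mitochondrial genes, against -0.02 over all genes. Naive mouse 2, which stood apart, was the highest naive library for 16 of the 19 cytosolic genes, among them Gars1 (66.1 CPM, against 52.3 to 54.8 in the other naive libraries), Hars1 and Farsb. Without mouse 2 the counts of genes called were the same, and the medians were 0.34 and 0.21.

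The largest change with IL-4/IL-13 was that of Wars2 (chr3:99047954-99146502), the mitochondrial tryptophanyl enzyme. It was counted at 6.25, 5.86, 7.03 and 7.11 CPM in the naive libraries of mice 1, 2, 4 and 5, in that order as in all such series here, and at 11.3, 12.3, 10.3 and 10.4 CPM with the cytokines. The groups did not overlap, and the log2 change was 0.75 ± 0.09 (SE, adjusted p = 5.4e-08). Wars1, the cytosolic enzyme for the same amino acid, changed by 0.44 ± 0.05 on the log2 scale (adjusted p = 1.2e-07).

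Rars1 (chr11:35699207-35725375), which charges the arginine tRNAs and belongs to the multisynthetase complex, went from 45.5, 55.6, 48.4 and 46.1 CPM to 75.4, 78.2, 72.3 and 74.2 CPM (log2 change 0.62 ± 0.05, adjusted p = 7.4e-11). Eprs1 (chr1:185095101-185161840), a single protein that charges both glutamate and proline tRNAs, went from 69.7, 62.3, 79.4 and 74.6 CPM to 104, 104, 115 and 104 CPM (0.58 ± 0.06, adjusted p = 6.3e-09). Every mouse was higher with cytokines for both genes. Iars1 (chr13:49835576-49887745), the isoleucyl enzyme, was lowest in naive mouse 2, with 51.6, 41.2, 58.3 and 53.2 CPM against 70.4, 74.2, 79.1 and 77.8 CPM (0.56 ± 0.07, adjusted p = 1.0e-07). Nars2 (chr7:96600689-96717097), the mitochondrial asparaginyl enzyme, rose from 3.71, 3.41, 4.08 and 4.87 CPM to 6.02, 5.85, 5.90 and 5.83 CPM (0.55 ± 0.11, adjusted p = 1.0e-04).

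The enzymes of asparagine moved in opposite directions. Nars1 fell from 258 ± 5.66 CPM to 190 ± 4.91 CPM (SD, n = 4; log2 change -0.44 ± 0.03, adjusted p = 4.7e-11) while Nars2 rose, and the log2 ratio of the cytosolic to the mitochondrial enzyme changed by -1.18, -1.27, -0.94 and -0.64 in the 4 mice. For valine the order was the opposite: Vars1 rose by 0.30 and Vars2 fell by 0.44 on the log2 scale, and the ratio changed by 0.77, 0.66, 0.93 and 0.63. The calls of Farsa, Farsb, Hars1, Iars2, Sars2, Ears2 and Hars2 in this comparison were each lost under at least 1 alternative fit or with 1 mouse left out.

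Tunicamycin raised every cytosolic synthetase. All 19 were higher than with IL-4/IL-13 alone and 0 were lower (0 at an unadjusted p under 0.05, and 0 by DESeq2), beside 38.7% of all genes called higher and 37.6% called lower. At least 2.5-fold, the fold threshold of the study, was reached by 12 of the 19, beside 8.56% of all genes. The median log2 change was 1.66 over the cytosolic and 0.38 over the mitochondrial genes, against 0.01 over all genes. Summed over the set, the cytosolic enzymes went from 1368 ± 18.2 to 4741 ± 114 CPM and the mitochondrial enzymes from 286 ± 8.75 to 360 ± 4.11 CPM (SD, n = 4). The difference between the sets has no test of its own here.

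**Figure D1:**
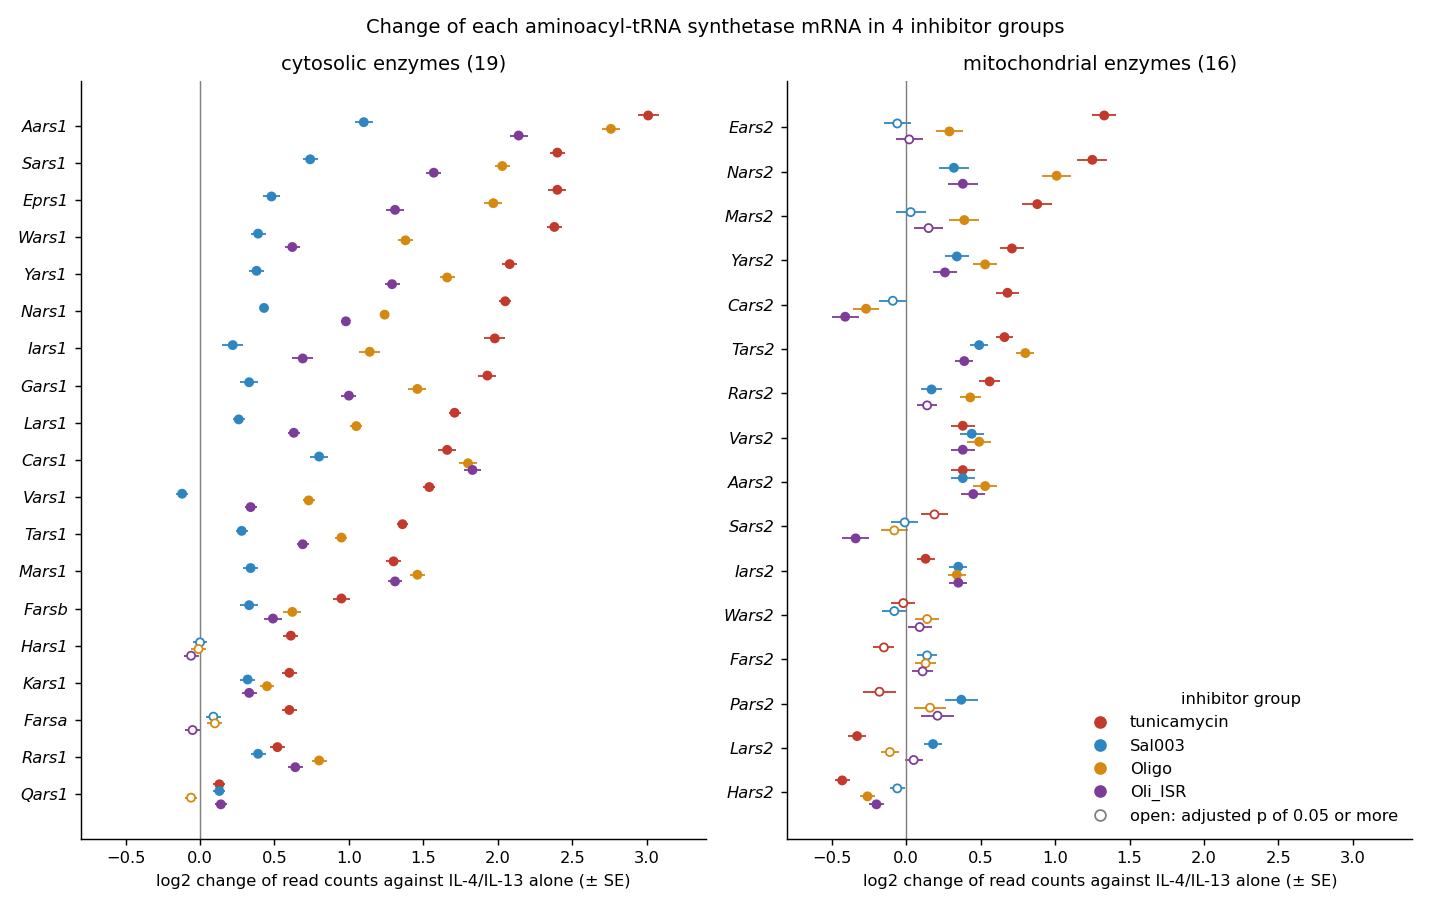
Log2 change of each synthetase mRNA in the 4 inhibitor groups against IL-4/IL-13 alone, with its standard error; cytosolic enzymes left, mitochondrial enzymes right, ordered by the change under tunicamycin, open circles for an adjusted p of 0.05 or more. Under tunicamycin all 19 cytosolic enzymes lie above zero, from 0.13 for Qars1 to 3.01 for Aars1, and the mitochondrial enzymes lie between -0.43 for Hars2 and 1.33 for Ears2.

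Aars1 (chr8:111754391-111784296), which charges the alanine tRNAs, had the largest change. It was counted at 75.6, 72.7, 76.4 and 73.0 CPM with IL-4/IL-13 and at 575, 616, 615 and 592 CPM with tunicamycin, an 8.05-fold difference (log2 change 3.01 ± 0.07, adjusted p = 1.1e-22). Sars1 (chr3:108332181-108352701), the seryl enzyme, went from 76.4, 79.7, 75.0 and 73.0 CPM to 392, 409, 401 and 410 CPM (2.40 ± 0.05, adjusted p = 1.2e-22). Eprs1 went from its 104 to 115 CPM to 521, 593, 587 and 550 CPM (2.40 ± 0.06, adjusted p = 1.9e-21). In all 3 genes the lowest tunicamycin library was more than 4-fold above the highest library with cytokines alone.

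Wars1 (chr12:108825955-108860188), the cytosolic tryptophanyl enzyme, was at 67.1, 66.5, 71.2 and 68.4 CPM with IL-4/IL-13 and at 348, 359, 360 and 350 CPM with tunicamycin (2.38 ± 0.05, adjusted p = 2.6e-22). Yars1 (chr4:129082752-129114906), the tyrosyl enzyme, was at 31.6, 31.4, 34.0 and 34.2 CPM and then at 133, 140, 138 and 142 CPM (2.08 ± 0.05, adjusted p = 1.2e-21). The smallest changes in the cytosolic set were those of Qars1 (glutamine), at 0.13 ± 0.04, Rars1, at 0.52 ± 0.05, and the group of Farsa, Kars1 and Hars1, at 0.60, 0.60 and 0.61. The call of Qars1 was lost with upper-quartile normalization and with a stricter filter on low counts.

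Gars1 and Kars1, whose products serve both compartments, stood far apart. Gars1 (chr6:55014927-55061231; glycine) was at 73.5, 74.6, 73.0 and 72.3 CPM with IL-4/IL-13 and at 282, 284, 282 and 273 CPM with tunicamycin (1.93 ± 0.06, adjusted p = 2.5e-20). Kars1 (chr8:112719747-112738004; lysine) was at 74.1, 69.9, 77.3 and 75.8 CPM and then at 112, 111, 116 and 112 CPM (0.60 ± 0.05, adjusted p = 1.6e-11). Without this pair the cytosolic counts were 17 of 17 higher and a median of 1.66, the same median as with it.

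The mitochondrial enzymes went in both directions under tunicamycin, with 10 of 16 higher, 2 lower and 4 not called, beside 38.7% of all genes higher and 37.6% lower. Ears2 (chr7:121635056-121666864), the glutamyl enzyme, had the largest change and was the only one past 2.5-fold. It went from 8.13, 8.02, 7.63 and 7.59 CPM to 20.6, 20.0, 18.7 and 19.6 CPM (1.33 ± 0.08, adjusted p = 2.6e-13). Nars2 followed, from 5.83 to 6.02 CPM up to 13.5, 15.4, 13.5 and 13.9 CPM (1.25 ± 0.10, adjusted p = 1.1e-11), and then Mars2 (methionine) at 0.88 ± 0.10. Hars2 fell by 0.43 and Lars2 (leucine) by 0.33 on the log2 scale (adjusted p = 9.4e-09 and 2.3e-05), each lower in 4 of 4 mice. Fars2, Pars2, Sars2 and Wars2 had log2 changes between -0.18 and 0.19 and were not called. The call of Iars2 (0.13 ± 0.06, adjusted p = 0.042) was lost in 8 alternatives, DESeq2 among them. With the mouse as a replicate block, Fars2 was called lower, at a log2 change of -0.15, as it was in 5 further alternatives.

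**Figure D2:**
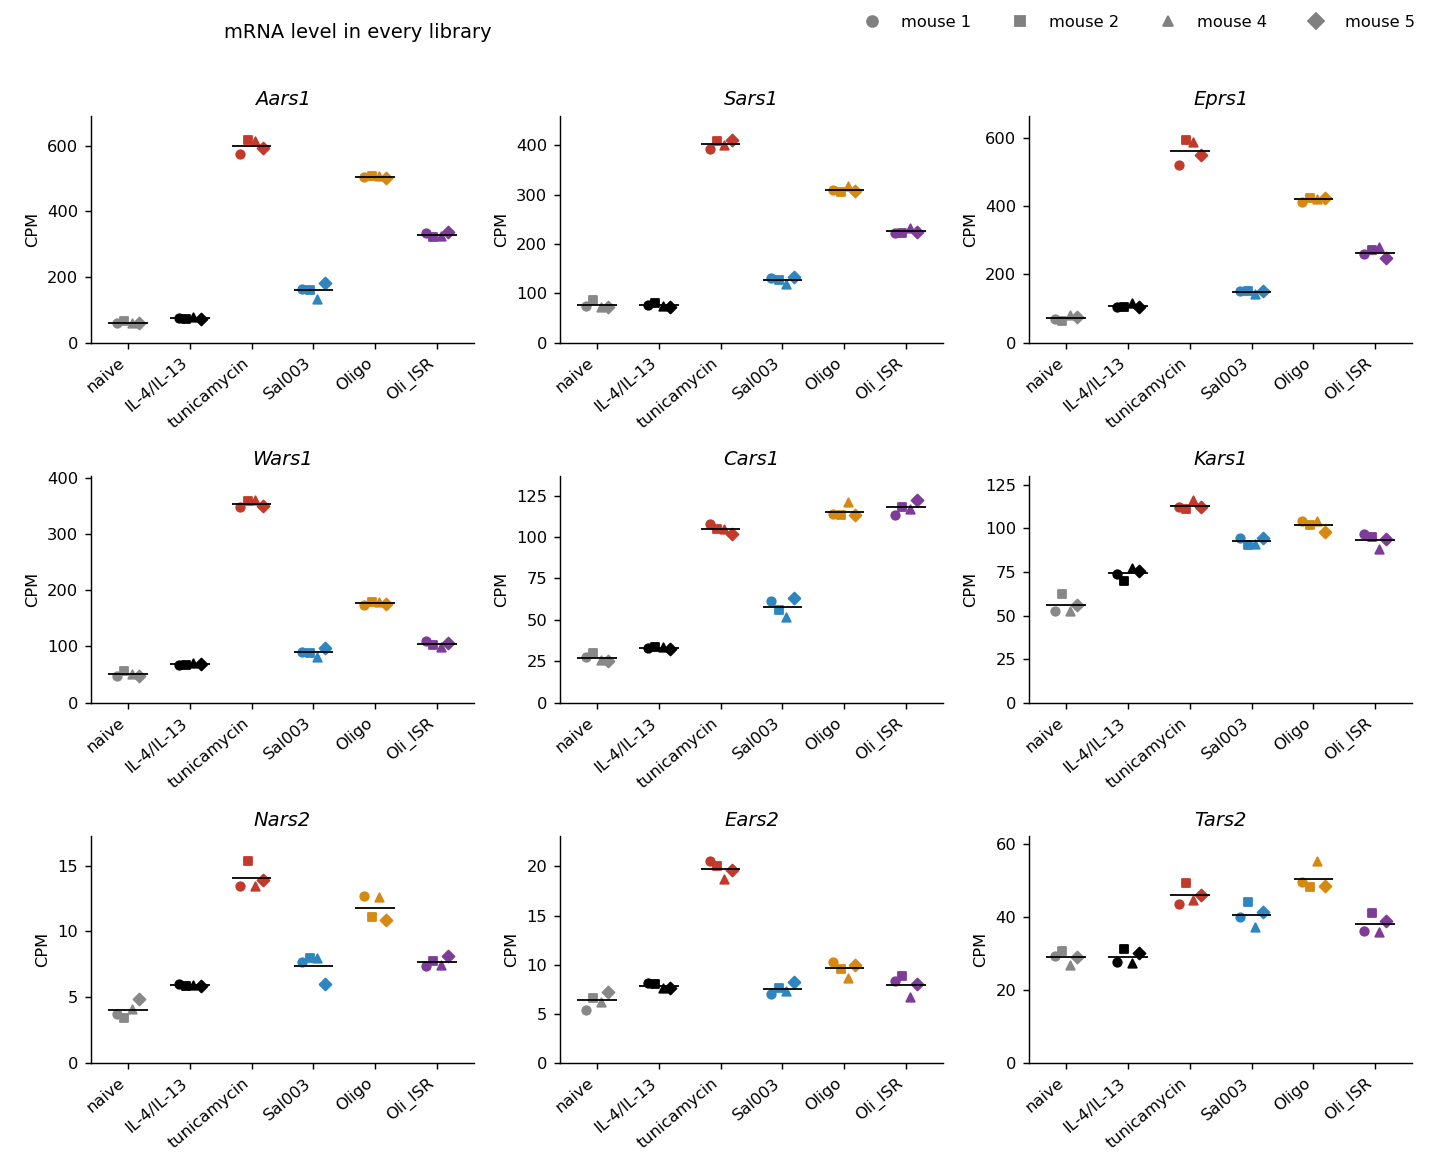
Level of 9 synthetase mRNAs in each of the 24 libraries, in CPM, with 1 symbol per mouse and a line at the mean of each group; each panel has its own axis from 0. Aars1, Sars1, Eprs1 and Wars1 are highest with tunicamycin and next highest in Oligo, Cars1 is highest in both oligomycin groups, and the mitochondrial Ears2 is highest with tunicamycin.

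Oligomycin also raised most cytosolic enzymes. In Oligo, 16 of 19 were higher than with IL-4/IL-13 alone and 0 were lower (0 at an unadjusted p under 0.05, and 0 by DESeq2), beside 34.0% of all genes higher and 32.2% lower, and 8 of 19 were past 2.5-fold, beside 4.79% of all genes. In Oli_ISR, 17 of 19 were higher and 0 lower (again 0 by either count), beside 27.9% and 26.4% of all genes, and 3 were past 2.5-fold, beside 2.94%. The median log2 change was 1.14 in Oligo and 0.69 in Oli_ISR. Both comparisons, and those with tunicamycin and Sal003, share the IL-4/IL-13 libraries.

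The enzymes that led were largely those named for tunicamycin, with Cars1 added. Aars1 was at 505, 508, 507 and 501 CPM in Oligo and at 333, 321, 324 and 337 CPM in Oli_ISR (log2 change 2.76 ± 0.06 and 2.14 ± 0.06 against IL-4/IL-13, adjusted p = 4.5e-21 and 1.5e-18). Sars1 was at 310, 306, 318 and 308 CPM in Oligo and at 223, 223, 233 and 225 CPM in Oli_ISR (2.03 ± 0.05 and 1.57 ± 0.05). Eprs1 was at 411, 424, 421 and 424 CPM and at 260, 270, 279 and 249 CPM (1.97 ± 0.06 and 1.31 ± 0.06). For these genes Oligo and Oli_ISR did not overlap, and Oligo was the higher.

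Cars1 (chr7:143107440-143153828), the cysteinyl enzyme, did not share this order. It was at 33.0, 33.7, 33.6 and 32.5 CPM with IL-4/IL-13, at 114, 113, 121 and 113 CPM in Oligo and at 113, 118, 117 and 122 CPM in Oli_ISR (1.80 ± 0.06 and 1.83 ± 0.06, adjusted p = 7.3e-19 and 3.4e-18). Yars1 was at 103, 104, 107 and 102 CPM in Oligo (1.66 ± 0.05) and at 83.2, 79.1, 80.9 and 78.1 CPM in Oli_ISR (1.29 ± 0.05). Mars1 (chr10:127128344-127147776), the methionyl enzyme of the complex, was at 44.6, 42.9, 46.7 and 42.2 CPM with IL-4/IL-13, at 121, 122, 126 and 118 CPM in Oligo and at 108, 108, 110 and 110 CPM in Oli_ISR (1.46 ± 0.05 and 1.31 ± 0.05). On the opposite strand, 47.2% of the exonic bases of Mars1 overlap exons of Ddit3, a gene of the stress response that itself changed by 2.80 in Oligo, 1.93 in Oli_ISR and 4.21 with tunicamycin on the log2 scale. Whether reads were counted by strand is not given in the sources used here, so reads of this pair cannot be told apart there. The 47.2% is over all annotated exons of Mars1, and 0.0% of its canonical transcript was near-identical to a transcript of another gene.

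Farsa and Hars1 were not called in either oligomycin group, with log2 changes between -0.06 and 0.10, and Qars1 was called in Oli_ISR alone (0.14 ± 0.04, adjusted p = 0.0052), a call lost in 5 alternatives. Gars1 was at 203, 195, 208 and 200 CPM in Oligo and at 153, 145, 148 and 139 CPM in Oli_ISR (1.46 ± 0.06 and 1.00 ± 0.05). Kars1 was at 104, 102, 104 and 97.7 CPM and at 96.6, 95.2, 88.3 and 94.0 CPM (0.45 ± 0.05 and 0.33 ± 0.05).

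Of the 16 mitochondrial enzymes, 9 were higher and 2 lower in Oligo, and 6 were higher and 3 lower in Oli_ISR, with medians of 0.32 and 0.14. Over all genes, 34.0% were called higher and 32.2% lower in Oligo, and 27.9% and 26.4% in Oli_ISR, so that the counts in Oli_ISR lie near the background. Nars2 led in Oligo, at 12.7, 11.1, 12.6 and 10.9 CPM (1.01 ± 0.10, adjusted p = 1.5e-09). Aars2 (chr17:45817749-45832900), the alanyl enzyme, led in Oli_ISR, at 12.6, 16.3, 12.9 and 14.1 CPM against 9.97, 9.63, 9.74 and 11.7 CPM with IL-4/IL-13 (0.45 ± 0.08, adjusted p = 4.1e-05). Tars2 (threonine) rose by 0.80 ± 0.06 in Oligo and 0.39 ± 0.06 in Oli_ISR. Cars2 fell by 0.27 and 0.41 and Hars2 by 0.26 and 0.20 on the log2 scale, and Sars2 fell by 0.34 in Oli_ISR (adjusted p = 0.0034). No mitochondrial gene reached 2.5-fold in either group; the largest fold was 2.01, that of Nars2 in Oligo.

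**Figure D3:**
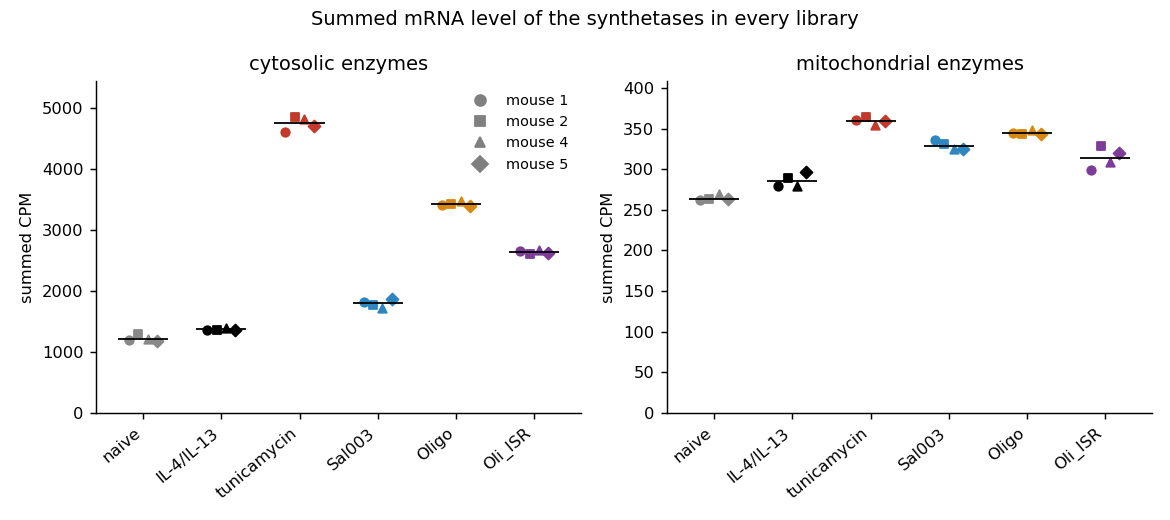
Summed level of the 19 cytosolic (left) and the 16 mitochondrial (right) synthetase mRNAs in each library, in CPM, with 1 symbol per mouse and a line at the mean of each group; both axes start at 0. The cytosolic sum runs from 1174 to 1284 CPM in naive cells up to 4598 to 4852 CPM with tunicamycin, and the mitochondrial sum from 262 to 269 CPM up to 355 to 365 CPM.

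Sal003 gave smaller changes. Of the cytosolic enzymes, 16 of 19 were higher and 1 (Vars1) lower than with IL-4/IL-13 alone, beside 25.9% and 24.6% of all genes, with a median log2 change of 0.33, against 0.00 over all genes. Of the mitochondrial enzymes, 9 of 16 were higher and 0 lower (0 at an unadjusted p under 0.05, and 0 by DESeq2), with a median of 0.17. No synthetase reached 2.5-fold, beside 2.68% of all genes that did so upward. Without mouse 1 the count of higher mitochondrial enzymes fell to 5. The call of Vars1 (-0.12 ± 0.04, adjusted p = 0.0080) was lost without mouse 1, without mouse 5 and with no filter on low counts.

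The leading genes under Sal003 were again Aars1, Cars1, Sars1 and Eprs1, with 1 mitochondrial enzyme, Tars2, among the first 5. Aars1 was at 164, 160, 132 and 182 CPM (1.10 ± 0.06, 2.14-fold, adjusted p = 2.7e-13), so that mice 4 and 5 differed by more than in any other group. Cars1 was at 61.4, 56.0, 51.5 and 63.1 CPM (0.80 ± 0.06) and Sars1 at 131, 127, 118 and 132 CPM (0.74 ± 0.05), both lowest in mouse 4 and highest in mouse 5 as well. Tars2 (chr3:95647269-95667518) was at 40.0, 44.0, 37.2 and 41.3 CPM against 27.5, 31.1, 27.4 and 30.0 CPM with IL-4/IL-13 (0.49 ± 0.06, adjusted p = 5.9e-07). Eprs1 was at 152, 150, 143 and 152 CPM (0.48 ± 0.06). In Gars1, with 96.6, 87.7, 89.3 and 96.0 CPM (0.33 ± 0.06), and Kars1, with 94.6, 90.2, 90.8 and 94.3 CPM (0.32 ± 0.05), the groups did not overlap either. Nars2 was called (0.32 ± 0.10, adjusted p = 0.0097) with 7.68, 7.95, 7.98 and 5.97 CPM, a call lost without mouse 1, 2 or 4.

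Oligo and Oli_ISR were then compared directly, since they differ in ISRIB, in a direction that the labels do not settle. Of the cytosolic enzymes, 15 of 19 were higher in Oligo and 1 (Qars1) lower, beside 19.9% and 21.3% of all genes, with a median log2 difference of 0.26. Wars1 differed most, at 173, 180, 180 and 176 CPM in Oligo and 110, 103, 99.4 and 107 CPM in Oli_ISR (0.76 ± 0.05, adjusted p = 1.8e-11). Eprs1 (0.67 ± 0.06) and Aars1 (0.62 ± 0.06) followed. Cars1, Farsb and Hars1 differed by -0.03, 0.12 and 0.04 and were not called. Of the mitochondrial enzymes, 6 of 16 were higher and 1 (Lars2) lower, with a median of 0.13; Nars2 differed most (0.62 ± 0.09, adjusted p = 6.6e-06). The call of Lars2 was lost without mouse 2, 4 or 5. Scaling by library totals alone put the median of all genes at 0.115 on the log2 scale in this comparison and left neither Qars1 nor Lars2 called.

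Tunicamycin was compared with Oligo, each inhibitor at its single dose. By the titles and treatment fields Oligo also held ISRIB, and by the library names it did not. The comparison may therefore not be one of stressors alone, and tunicamycin was not compared with Oli_ISR. Of the cytosolic enzymes, 16 of 19 were higher with tunicamycin and 3 were lower (Cars1, Mars1 and Rars1), beside 31.4% and 32.1% of all genes, with a median log2 difference of 0.41. Wars1 differed by 1.00 ± 0.05, Iars1 by 0.83 ± 0.06 and Vars1 by 0.81 ± 0.03. Of the mitochondrial enzymes, 6 were higher and 5 lower, with a median of -0.13; Ears2 (1.04 ± 0.08) and Cars2 (0.94 ± 0.09) were the highest and Pars2 (-0.34 ± 0.11) the lowest. Without mouse 1 the counts of lower enzymes fell to 1 cytosolic and 2 mitochondrial, and the latter was 3 without mouse 4 or 5.

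Within a library, the ratio of a cytosolic enzyme to its mitochondrial partner does not depend on the depth. Under tunicamycin the ratio was above that with IL-4/IL-13 in all 4 mice for 16 of 17 pairs, with a median change of 1.10 on the log2 scale. The widest shift was for alanine, where Aars1 over Aars2 moved by 2.40 to 2.90 in the 4 mice, and the exception was arginine, where Rars1 over Rars2 moved by -0.17, -0.15, 0.04 and 0.14. In Oligo the count was again 16 of 17 (median 1.07), with Farsa over Fars2 as the exception. Any value above 0 was counted, and Tars1 over Tars2 moved by 0.00 in mice 1 and 4 to the precision printed here, and by 0.31 and 0.32 in mice 2 and 5. In Oli_ISR it was 15 of 17 (median 0.58), and with Sal003 it was 7 of 17 (median 0.12), with 3 pairs below in all mice (isoleucine, threonine and valine). The 17 pairs are not independent, since Eprs1 and Fars2 each stand in 2 of them, and no test was made of these counts.

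**Figure D4:**
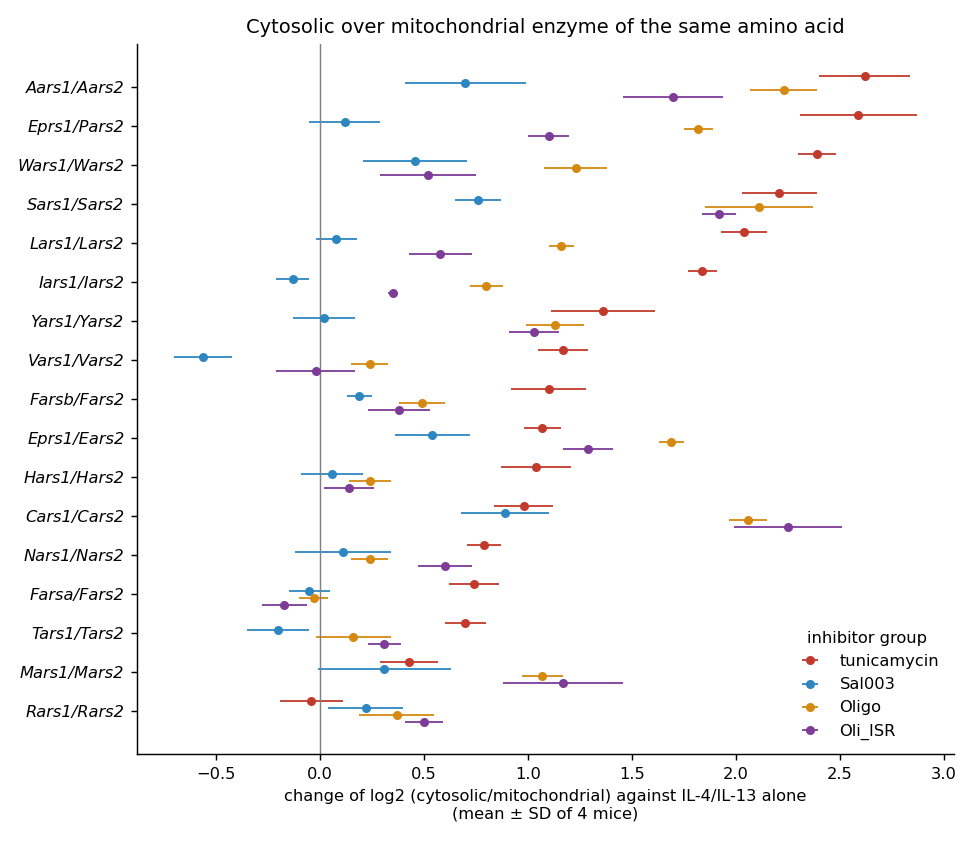
Change of the log2 ratio of the cytosolic to the mitochondrial enzyme for the same amino acid against IL-4/IL-13 alone, for 17 pairs and 4 inhibitor groups; points are means of 4 mice and bars the SD. Under tunicamycin the pairs lie between -0.04 for Rars1/Rars2 and 2.62 for Aars1/Aars2, and with Sal003 between -0.56 for Vars1/Vars2 and 0.89 for Cars1/Cars2.

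Among the 4 inhibitor groups, tunicamycin had the highest mean CPM for 15 of 19 cytosolic enzymes, Oligo for Mars1 and Rars1, and Oli_ISR for Cars1 and Qars1. For the mitochondrial enzymes the order was more mixed, with tunicamycin highest for 7 of 16, Sal003 for 5 (Fars2, Hars2, Iars2, Lars2 and Pars2) and Oligo for 4 (Aars2, Tars2, Vars2 and Wars2). Neither this order nor the overlaps below were counted over all genes tested. These counts therefore cannot be read as a trait of the synthetases. The first place in this order was not always clear of the others. The libraries of the highest group overlapped those of at least 1 other inhibitor group for Cars1, Qars1, Aars2, Fars2, Iars2, Pars2, Rars2, Tars2, Vars2 and Wars2. Iars2 had means of 67.5 ± 2.60 CPM with Sal003, 67.4 ± 1.40 CPM in Oli_ISR and 67.1 ± 1.66 CPM in Oligo (SD, n = 4), and Qars1 had 129 ± 3.85 CPM in Oli_ISR, 128 ± 2.73 CPM with Sal003 and 127 ± 3.54 CPM with tunicamycin. The difference of Cars1 between Oligo and Oli_ISR did not pass the test (adjusted p = 0.70). That of Tars2 between tunicamycin and Oligo did not pass either (log2 difference -0.13 ± 0.06, adjusted p = 0.057), but was called with the mouse as a replicate block (-0.14). In Rars1 the first place was clear, with 133, 133, 128 and 130 CPM in Oligo. The next group was Oli_ISR, at 114, 120, 117 and 116 CPM, followed by tunicamycin, at 102, 107, 113 and 109 CPM.

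The place of an enzyme in the multisynthetase complex was compared with its change. All 7 complex enzymes of the list (Eprs1, Iars1, Kars1, Lars1, Mars1, Qars1 and Rars1) were higher with tunicamycin, with a median log2 change of 1.30, and all 12 cytosolic enzymes outside it, with a median of 1.80. In Oligo the medians were 1.05 and 1.31, with 6 of 7 and 10 of 12 called higher. Of the 3 scaffold genes, Eef1e1 changed most, from 13.3, 12.2, 13.6 and 13.5 CPM to 41.8, 42.7, 44.8 and 42.4 CPM with tunicamycin (1.71 ± 0.08, adjusted p = 1.0e-15) and by 1.24 ± 0.08 in Oligo. Aimp1 changed by 0.89 and Aimp2 by 0.64 with tunicamycin. The synthetases also fall into class I and class II by the fold of their catalytic domain: with tunicamycin all 10 cytosolic enzymes of class I and all 9 of class II were higher, with medians of 1.68 and 1.36. Eprs1 was counted in class I by its glutamyl part, although its prolyl part is of class II. Without it the class I median was 1.66, and with it the class II median was 1.65.

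Further genes of tRNA charging and translation were counted beside the synthetases. For reading these counts, 38.7% of all genes were called higher and 37.6% lower with tunicamycin, and 34.0% and 32.2% in Oligo. Of 11 further genes of aminoacylation, among them Sepsecs (selenocysteine synthesis), Gatb, Gatc and Qrsl1 (mitochondrial glutaminyl-tRNA synthesis), 2 were higher and 2 lower with tunicamycin, with a median log2 change of 0.01. Of the 5 cytosolic elongation factors, 0 were higher (0 at an unadjusted p under 0.05, and 0 by DESeq2) and 3 lower with tunicamycin, the lowest being Eef1b2 at -0.47. Of the 9 mitochondrial translation factors, 5 were higher and 1 lower with tunicamycin (median 0.15), and 5 and 2 in Oligo (median 0.32). Mtrf1, a mitochondrial release factor, was the only gene of these lists to pass 2-fold: it went from between 5.68 and 7.67 CPM to between 12.7 and 14.5 CPM in Oligo (1.04 ± 0.09, adjusted p = 2.4e-10).

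Atf4 mRNA and ATF4 target genes were measured in the same libraries. Atf4 was at 143, 134, 124 and 142 CPM with IL-4/IL-13 and changed by 3.01 with tunicamycin, 2.38 in Oligo, 1.82 in Oli_ISR and 0.61 with Sal003 on the log2 scale, beside medians of 1.66, 1.14, 0.69 and 0.33 over the cytosolic synthetases. Asns, which makes asparagine, changed by 4.51, 4.31, 4.16 and 2.21, and Trib3, an inhibitor of ATF4, by 7.87, 7.24, 5.35 and 3.24. In each of the 4 groups Asns and Trib3 changed by more than any synthetase. Atf4 changed by less than Aars1 in Oligo, Oli_ISR and Sal003.

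Some counts may hold reads of other genes or lack reads of their own. How reads that fit more than 1 gene were counted is not stated in the methods of the study. Of the canonical Iars1 transcript, 49.9% is near-identical to Gm4849, which had at most 4 reads in a library. Exonic bases shared with a gene on the opposite strand made up 25.4% of Farsb (Sgpp2), 22.7% of Yars1, 29.1% of Cars2 (Naxd), 27.4% of Iars2 (Rab3gap2 and others), 33.9% of Mars2 (Boll) and 31.4% of Yars2 (Dnm1l). Of the canonical transcripts, 53.9% of Cars2 was near-identical to Naxd, 45.0% of Iars2 to Rab3gap2, 50.4% of Yars2 to Dnm1l and 33.9% of Mars2 to Boll. The search was not limited to 1 strand, and these partners are the genes that overlap on the opposite strand. These 4 shares therefore include that overlap and do not show a further similarity. For Farsb and Yars1 the near-identical share was 0.0%. Sgpp2 and Boll had at most 1 read in any library, while Naxd, Rab3gap2 and Dnm1l were expressed and changed by -0.03, 1.17 and 0.12 with tunicamycin on the log2 scale. Aars1 shares 12.1% of its exonic bases with Exosc6 on its own strand, and Exosc6 was listed at 0 in every library. Hars1 and Hars2 lie head to head and overlap at their ends.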

How the data were processed

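RNA-seq counts of 24 libraries from 4 mice in 6 groups were analysed. Per the labels and methods, the authors used Cutadapt 1.8 for adapter and quality trimming, discarded reads of ribosomal RNA or low complexity, mapped what remained to GRCm39 by STAR 2.7 and obtained gene counts from HTSeq 0.9.1. The deposited values are raw counts per gene without normalization; 5 totals that belong to no gene (12.74% to 15.231% of reads) entered neither the tests nor the library sizes. Whether strand was used is not given in the sources used here. The deposited RSEM table was not used, because its header names do not match its columns.

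Counts were tested with edgeR 4.0.16 in R 4.3.3 (TMM, filterByExpr by group, quasi-likelihood test, Benjamini-Hochberg adjustment over 13679 genes) in 1 model with a coefficient per group, for 7 comparisons. The script was tested on simulated data. The median biological coefficient of variation was 7.06%. CPM used TMM library sizes; TPM used the union of exons of GENCODE vM39, in which 56323 gene identifiers were found, or, added after the lengths had been seen, the canonical transcript. Near-identical stretches were searched with BLAST 2.17.0 (at least 95% over 100 bases). No intervals are given beside the SE and SD. The p-values rest on the spread between libraries of the same group, estimated over all groups in a model with no mouse term. They do not measure the spread of the change within mice.

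The members, gene lists and tests were chosen with earlier results of these data known. Values in every library of the comparisons concerned are given for the 5 synthetases with the largest change in each of the first 5 comparisons (adjusted p under 0.05, same direction in all mice), the mitochondrial one with the largest change, and Gars1 and Kars1; other genes are named where a pathway list holds a called change of at least 2-fold, and Atf4, Asns and Trib3. Aimp1, Aimp2, Eef1b2, the overlapping genes and members that lost a call were named after their values were seen.

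Libraries with the same number are from the same animal, which pairs them: deviations from group means correlated with a median r of 0.2361 between groups (56 of the 60 pairs exceeded 0.1), whereas libraries of different mice gave -0.0543 (7 of 180). The methods of the study state no mouse term, so the replicate block was an alternative, beside DESeq2 1.42.0, RLE, upper-quartile and total-count scaling, a filter of 10 or more counts in each library (11017 genes) or none (27890 genes), a fit to the compared groups alone, and each mouse left out.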

Additional observations from a re-analysis of the deposited data

Results flagged for a closer look

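In 96 groups of 4 libraries, those of 16 synthetases in 6 groups, 7 held a library far from the other 3 by Dixon's criterion; chance marks about 1 group in 20. Eprs1 stood at 115 CPM in mouse 4 with IL-4/IL-13, where the others were at 104. Aars2 was at 11.7 CPM in mouse 5 with IL-4/IL-13, against 9.63 to 9.97. In naive mouse 2, Aars1 was at 64.5 CPM against 58.2 to 59.1 and Sars1 at 86.9 CPM against 71.4 to 73.5. In Sal003, Nars2 was at 5.97 CPM in mouse 5 against 7.68 to 7.98, the only low value of the 7. Mouse 4 was high for Sars1 in Oli_ISR, at 233 CPM against 223 to 225, and for Cars1 in Oligo, at 121 CPM against 113 to 114.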

How the results depend on the processing

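Over 12 alternatives for each of 35 synthetases and 7 comparisons, 2796 of 2940 results kept their direction and their side of the threshold, 103 were no longer called, 41 became called and 0 reversed. With the mouse as a replicate block, 242 of 245 kept their call and 3 became called: Fars2 under tunicamycin (-0.15), Mars2 between Oligo and Oli_ISR (0.25) and Tars2 between tunicamycin and Oligo (-0.14); the block changed no other call. The counts and medians that moved were as follows, and the cause was not tested. Upper-quartile normalization gave cytosolic medians of 1.61 for tunicamycin, 0.64 for Oli_ISR and 0.37 for tunicamycin against Oligo, 0 lower mitochondrial enzymes between Oligo and Oli_ISR, and 8 between tunicamycin and Oligo. Library totals alone gave cytosolic medians of 0.24 for Sal003, 0.62 for Oli_ISR and 0.38 between Oligo and Oli_ISR, and mitochondrial medians of 0.08 for Sal003 and 0.25 between Oligo and Oli_ISR. They also gave 1 lower mitochondrial enzyme for Sal003, and between Oligo and Oli_ISR 0 lower cytosolic, 0 lower mitochondrial and 10 higher mitochondrial enzymes. With no filter on low counts, lower mitochondrial enzymes numbered 1 for IL-4/IL-13 against naive, 0 between Oligo and Oli_ISR and 2 between tunicamycin and Oligo; lower cytosolic enzymes numbered 0 for Sal003 and 1 between tunicamycin and Oligo, where the cytosolic median was 0.45. With 1 mouse left out, the cytosolic median ran from 0.64 (without mouse 1) to 0.69 for Oli_ISR and from 0.40 to 0.46 (without mouse 1) for tunicamycin against Oligo. The count of higher mitochondrial enzymes for Sal003 ran from 5 to 9, and that of lower cytosolic ones from 0 to 1. Lower mitochondrial enzymes ran from 0 to 1 between Oligo and Oli_ISR and from 2 to 5 between tunicamycin and Oligo, where lower cytosolic ones ran from 1 to 3.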
